A study of Mus musculus with 6 samples.

Results

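The heavy chain variable segments (Ighv genes) of the mouse were followed in B cells given the transcription factor Sox2. They were taken as every row of the gene count table whose symbol begins with Ighv, which gave 113 of 37620 gene rows. Of these, 92 segments held 10 or more counts summed over the 6 libraries and were used for values, and 78 had enough counts to be tested. The libraries were 3 of B cells infected with the retroviral vector pMIR-Sox2, which carries Sox2, and 3 of B cells infected with the empty vector pMIR. All 6 came from spleens of C57Bl/6 mice 4 months old, and the labels name no other allele. In both groups the B cells were stimulated in culture with anti-CD40 (1 µg/ml) and IL-4 (12.5 µg/ml), exposed to virus at 24 and 48 h, and sorted at 96 h on mCherry, which marks infected cells. Nothing in the labels tells whether replicates are different animals, and p-values therefore cover only the spread among these 6 libraries, which may be technical.

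Each B cell assembles its heavy chain gene by joining a single variable segment to a D and a J segment. The promoter of the chosen variable segment then drives the transcript, which runs through VDJ into a constant gene, first Ighm and, after class switching, genes such as Ighg1. Variable segments are grouped into subgroups by sequence similarity, written as the first number in the symbol (Ighv1-26 is in Ighv1). In a polyclonal B cell population the counts over the segments therefore describe both how much rearranged heavy chain transcript is present and which segments the cells use. Reads from unrearranged segments cannot be told apart from these.

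Gene counts per library were 17153805 to 20770447 in pMIR-Sox2 and 21421769 to 27692437 in pMIR, of which the Ighv rows took 4809 to 5492 in pMIR-Sox2 and 9833 to 12703 in pMIR. Sox2 was read at 800 ± 183 CPM in pMIR-Sox2 and at 0.949 ± 0.744 CPM in pMIR (SD, n = 3 each). CPM are counts scaled to library size and composition by TMM. Of the B cell markers, Cd79a averaged 764 ± 112 CPM in pMIR-Sox2 and 652 ± 105 CPM in pMIR, and Ms4a1 205 ± 108 CPM in pMIR-Sox2 and 708 ± 95.8 CPM in pMIR (SD, n = 3 each). T cell markers summed to 2.00 to 4.46 CPM in pMIR-Sox2 and 1.67 to 2.59 CPM in pMIR, most of it Cd5, and Cd3e and Cd8a were at 0 in pMIR-Sox2. Of the erythroid markers, Hba-a1 and Hbb-b1 were at 0 in all 6 libraries. Myeloid markers summed to 29.6 to 36.4 CPM in pMIR-Sox2 and 18.3 to 21.7 CPM in pMIR, most of it Emr1, with Cd14 at 0 in pMIR-Sox2. Of the 4 myeloid markers tested 3 rose (23.2% of all genes), and their part in the Ighv values was not tested.

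Segments of a subgroup are close copies, and their sequences show how few bases the counting had to separate them by. Ighv1-26, the segment with the most counts, and Ighv1-18, its nearest relative of the same length, are given first, each without most of its leader, from base 52 of the transcript to its last base, 351. They differ at 11 of 351 bases, 8 of them in the stretch shown, and the capitals in Ighv1-18 mark the bases that differ from Ighv1-26. The sequences are the GENCODE M21 transcripts on chromosome 12 (GRCm38), another build than that of the counts.
Ighv1-26: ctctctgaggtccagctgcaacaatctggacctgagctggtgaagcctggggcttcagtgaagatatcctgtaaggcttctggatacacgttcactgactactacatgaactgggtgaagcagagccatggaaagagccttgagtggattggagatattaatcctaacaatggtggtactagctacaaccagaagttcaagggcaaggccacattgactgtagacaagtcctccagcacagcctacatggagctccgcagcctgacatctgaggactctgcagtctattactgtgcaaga
Ighv1-18: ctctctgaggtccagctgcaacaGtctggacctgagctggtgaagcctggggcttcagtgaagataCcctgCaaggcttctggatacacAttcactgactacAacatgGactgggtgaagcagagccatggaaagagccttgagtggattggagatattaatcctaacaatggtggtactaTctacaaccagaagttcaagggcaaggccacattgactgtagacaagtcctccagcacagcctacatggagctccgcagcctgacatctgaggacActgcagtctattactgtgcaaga
The Ighv14 segments are shown because the fold change of Ighv14-4 lies apart from those of its relatives. Ighv14-2 differs from Ighv14-1 at 10 of 351 bases and Ighv14-4 at 9 of 351, and capitals mark the differing bases in the same stretch.
Ighv14-1: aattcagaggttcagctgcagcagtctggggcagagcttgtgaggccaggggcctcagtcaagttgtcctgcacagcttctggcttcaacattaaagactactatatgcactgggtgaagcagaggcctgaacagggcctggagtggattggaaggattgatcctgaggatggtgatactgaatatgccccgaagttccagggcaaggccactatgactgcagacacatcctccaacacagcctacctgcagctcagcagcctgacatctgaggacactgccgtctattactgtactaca
Ighv14-2: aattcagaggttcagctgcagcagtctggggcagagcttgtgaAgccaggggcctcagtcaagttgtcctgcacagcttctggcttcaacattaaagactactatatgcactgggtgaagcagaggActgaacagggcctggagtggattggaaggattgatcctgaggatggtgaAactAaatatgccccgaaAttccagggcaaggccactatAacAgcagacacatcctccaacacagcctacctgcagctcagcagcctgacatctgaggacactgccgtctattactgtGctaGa
Ighv14-4: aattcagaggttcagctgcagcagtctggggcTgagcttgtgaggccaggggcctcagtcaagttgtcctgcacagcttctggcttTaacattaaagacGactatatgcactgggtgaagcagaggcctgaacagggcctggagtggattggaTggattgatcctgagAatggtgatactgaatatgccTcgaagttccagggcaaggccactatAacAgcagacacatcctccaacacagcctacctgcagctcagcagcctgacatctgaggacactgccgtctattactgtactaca
A read that falls between the capitals matches both copies. Over all GENCODE transcripts, 51.0% of the 50-base windows of Ighv1-26 were found in no other gene, 64.2% of those of Ighv1-18, 54.6% of those of Ighv14-1, 62.9% of those of Ighv14-2 and 78.8% of those of Ighv14-4. The median over the 89 used segments with a sequence was 77.2%.

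The question of the comparison, from the series' design, was what Sox2 changes in the RNA of these B cells. Total heavy chain variable signal was lower with Sox2. The Ighv rows summed to 252.3, 282.5 and 278.7 CPM in the pMIR-Sox2 libraries, against 421.8, 605.4 and 472.1 CPM in the pMIR libraries. The groups did not overlap, and pMIR replicate 2 was the highest library. The means were 271 ± 16.5 CPM and 499.8 ± 94.9 CPM (SD, n = 3 each), a ratio of −0.88 on the log2 scale or 1.84-fold lower, and −0.72 without pMIR replicate 2. As a share of all gene counts, Ighv reads were 0.0264, 0.0289 and 0.0280% in pMIR-Sox2 and 0.0413, 0.0586 and 0.0459% in pMIR. Fewer cells carrying a transcript and less RNA per cell cannot be told apart in these bulk samples.

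The fall was spread over the segments. All 78 tested segments had a negative log2 fold change, and 56 of them (71.8%) fell at an adjusted p under 0.05, against 20.0% of the 12899 genes tested. None rose, against 23.2% of all genes. Before adjustment, 0 segments had p under 0.05 for a rise in edgeR, and DESeq2 and limma-voom called 0 rises. The other 22 did not pass. The 56 falls ran from 1.60-fold to 3.03-fold, and 20 of them were over 2-fold. The median log2 fold change of the 78 was −0.87, and they ran from −1.60 to −0.04, beside −0.02 over all genes tested. In 64 of the 78 each pMIR-Sox2 library was below each pMIR library, against 27.6% of all genes, in 0 was it above (28.9% of all genes), and in the other 14 the libraries overlapped. Without pMIR-Sox2 replicate 1 the falls numbered 34 against 14.3% of all genes in that test. In the test of all libraries and in each of the 6 tests that left 1 library out, 33 segments fell. Over all genes the same count was not made, but it cannot exceed the 1783 (13.5%) that fell without pMIR replicate 1.

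**Figure D1:**
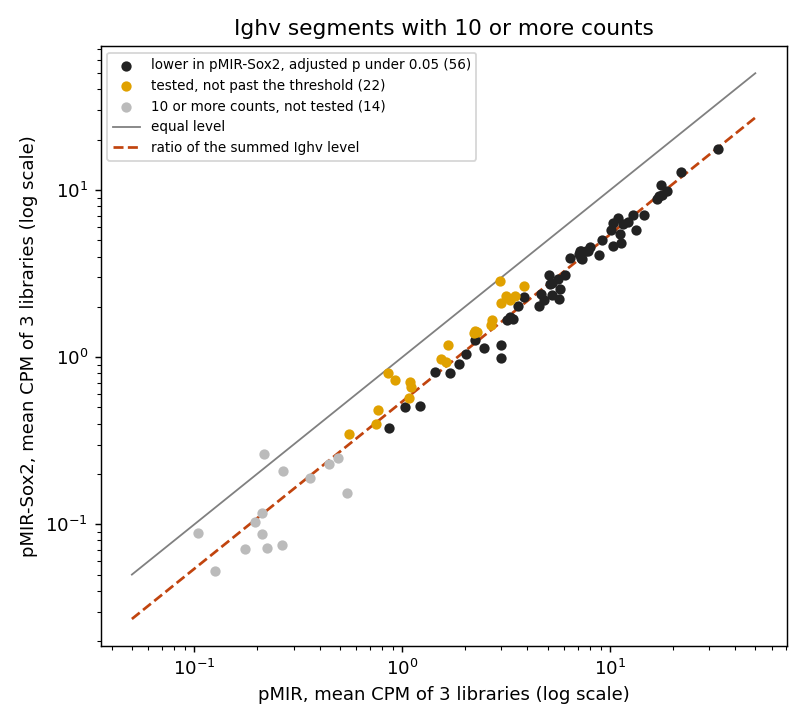
Mean CPM of each of the 92 used Ighv segments in pMIR-Sox2 (vertical, log scale) against pMIR (horizontal, log scale), coloured by the edgeR call. The 56 segments that fell scatter around the dashed line, which is the ratio of the summed Ighv level (log2 −0.88). Their log2 fold changes ran from −1.60 (Ighv3-1) to −0.68. Ighv14-4 and Ighv15-2 are the tested segments nearest to the line of equal level.

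The 12 segments with the highest CPM all fell, by 1.60-fold to 2.32-fold. Ighv1-26 had 17.5, 18.7 and 16.8 CPM in pMIR-Sox2 libraries, against 29.2, 39.2 and 30.5 CPM in pMIR libraries. Its libraries did not overlap, and it fell by 0.90 on the log2 scale (SE 0.14, adjusted p = 0.000891). Per kilobase of transcript it was also the highest segment, at 50.3 CPM per kb in pMIR-Sox2 and 93.9 CPM per kb in pMIR. Ighv1-82 followed with 11.03, 13.5 and 13.7 CPM in pMIR-Sox2, against 18.8, 27.9 and 19.01 CPM in pMIR (log2 fold change −0.78 ± 0.18, adjusted p = 0.00757). Ighv1-80 had 10.8, 9.90 and 9.04 CPM in pMIR-Sox2, against 16.5, 22.9 and 17.2 CPM in pMIR (−0.92 ± 0.16, adjusted p = 0.00192). By the largest share of the Ighv counts in any 1 library, these 3 Ighv1 segments came first. Ighv9-3 took more than Ighv1-80 in pMIR-Sox2 replicates 2 (4.19 against 3.50%) and 3 (3.93 against 3.24%). Of the rest, Ighv3-6 (−0.93), Ighv1-9 (−0.89), Ighv1-64 (−0.93), Ighv1-81 (−0.86) and Ighv8-8 (−0.93) lay within 0.05 of the ratio of the summed level. Ighv9-3 (−0.71) and Ighv1-39 (−0.68) fell least of the 12 and lost their calls without pMIR-Sox2 replicate 1 (adjusted p = 0.0695 for Ighv9-3 and 0.0520 for Ighv1-39), and Ighv1-22 (−1.05) and Ighv1-53 (−1.22) most. Ighv1-18, shown above beside Ighv1-26, fell by 0.88 on the log2 scale, so the close copies had nearly the same fold change.

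Of the 12 largest falls, 2 were of Ighv3 segments and 2 of Ighv6 segments. Ighv3-1 had 0.781, 1.03 and 1.16 CPM in pMIR-Sox2 libraries, against 2.36, 4.43 and 2.21 CPM in pMIR libraries. Each pMIR library was above the highest pMIR-Sox2 library, and the log2 fold change was −1.60 ± 0.34 (adjusted p = 0.00529). Ighv6-6 had 2.16, 2.33 and 2.202 CPM in pMIR-Sox2, against 3.84, 6.86 and 6.34 CPM in pMIR (−1.34 ± 0.26, adjusted p = 0.00297). Ighv3-8 had 1.10, 1.14 and 1.33 CPM in pMIR-Sox2, against 2.21, 3.62 and 3.12 CPM in pMIR (−1.32 ± 0.27, adjusted p = 0.00404). Ighv6-3, the other Ighv6 segment, had 3.72, 5.52 and 5.16 CPM in pMIR-Sox2, against 8.26, 13.3 and 12.2 CPM in pMIR (−1.23 ± 0.23, adjusted p = 0.00269). In these 4 segments the libraries did not overlap. The others were Ighv1-84 (−1.27), Ighv1-53 (−1.22), Ighv7-3 (−1.18), Ighv8-5 (−1.16), Ighv10-1 (−1.16), Ighv1-42 (−1.15), Ighv2-9-1 (−1.15) and Ighv2-6 (−1.13). The call of Ighv8-5, at 81 counts in all, held only without pMIR replicate 3, with an adjusted p of 0.0532 to 0.103 in the other tests that left 1 library out. The calls of Ighv1-84 (adjusted p = 0.0587) and Ighv2-6 (0.0503) were lost without pMIR-Sox2 replicate 1.

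By subgroup of the deposited symbols, 12 of the 16 had a lower summed CPM in every pMIR-Sox2 library than in any pMIR library. Ighv1, by far the largest with 56 rows, summed to 163 ± 9.78 CPM in pMIR-Sox2 and 298 ± 53.9 CPM in pMIR (SD, n = 3 each), a log2 ratio of −0.87, and 30 of its 40 tested segments fell. Ighv5 summed to 21.9 ± 1.83 CPM in pMIR-Sox2 and 41.3 ± 8.63 CPM in pMIR (log2 ratio −0.91), with 6 of 9 falling, and Ighv2 to 15.8 ± 0.287 CPM in pMIR-Sox2 and 28.1 ± 5.97 CPM in pMIR (−0.83), with 4 of 6 falling. Ighv5 and Ighv2 hold the segments nearest to the D segments. In Ighv5, the highest segment Ighv5-4 (−0.70) lost its call without pMIR replicate 2, pMIR replicate 3 or pMIR-Sox2 replicate 1 (adjusted p = 0.0675 to 0.0961). In Ighv2, the highest segment was Ighv2-2 (−0.80).

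All tested segments fell in Ighv3 (3 of 3, log2 ratio of the sum −1.05), Ighv6 (2 of 2, −1.27), Ighv7 (2 of 2, −1.19), Ighv8 (3 of 3, −0.93), Ighv10 (2 of 2, −1.07) and Ighv13 (1 of 1, −1.08). Ighv6 summed to 7.03 ± 1.02 CPM in pMIR-Sox2 and 16.9 ± 4.28 CPM in pMIR. The 1 tested Ighv13 segment, Ighv13-2 (−1.07), lost its call without pMIR replicate 2, pMIR replicate 3, pMIR-Sox2 replicate 1 or pMIR-Sox2 replicate 2 (adjusted p = 0.0521 to 0.0665). GENCODE gives its identifier the symbol Ighv6-7, of another subgroup. The identifier that GENCODE names Ighv13-2 is deposited as Ighv13-1 and held 0 counts, so the Ighv13 values rest on the deposited symbol. Ratios nearer to 0 were found in Ighv9, Ighv14 and Ighv4. Ighv9 summed to 14.8 ± 1.41 CPM in pMIR-Sox2 and 23.4 ± 5.71 CPM in pMIR (−0.66), and of its 4 segments only Ighv9-3 fell. Ighv14 summed to 11.3 ± 1.44 CPM in pMIR-Sox2 and 18.0 ± 2.71 CPM in pMIR (−0.66), with 2 of 4 falling. The single Ighv4 segment, Ighv4-1, had 1.66 ± 0.324 CPM in pMIR-Sox2 and 2.72 ± 0.540 CPM in pMIR (−0.71, adjusted p = 0.0509), and it passed with the replicate number as a block (adjusted p = 0.0209).

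In Ighv11, Ighv12, Ighv15 and Ighv16 the libraries overlapped or held no counts. Ighv11 and Ighv12 include the segments that B-1 cells of the mouse use for antibodies against phosphatidylcholine. Ighv11 summed to 0.230, 0.379 and 0.116 CPM in pMIR-Sox2, against 0.184, 0.524 and 0.0960 CPM in pMIR. Ighv12-3 had 0.184, 0.433 and 0.174 CPM in pMIR-Sox2, against 0.221, 0.334 and 0.0960 CPM in pMIR, and was the 1 of 92 used segments whose mean was higher in pMIR-Sox2. Ighv11-2 and Ighv12-3 held 30 counts each over the 6 libraries, and their CPM overlapped between the groups. Ighv15-2, the single Ighv15 segment, had 0.965, 0.757 and 0.696 CPM in pMIR-Sox2, against 0.922, 0.906 and 0.720 CPM in pMIR (log2 fold change −0.07 ± 0.29, adjusted p = 0.861). Ighv16-1 had 0 counts in all libraries. Markers of B-1 and marginal zone B cells went both ways in the same test. Of the 8 markers 4 fell (20.0% of all genes), 3 rose (23.2%) and 1 did not pass. The falls were of Bhlhe41 (log2 fold change −2.46), S1pr3 (−1.67), Dtx1 (−1.06) and Cd9 (−0.58). The rises were of Cd1d1 (4.17), Cr2 (2.79) and Notch2 (0.62), and Cd5 did not pass. Together the 8 markers summed to 226 to 344 CPM in pMIR-Sox2 and 181 to 219 CPM in pMIR. This sum does not hold for each marker, and their part in the Ighv values was not tested.

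**Figure D2:**
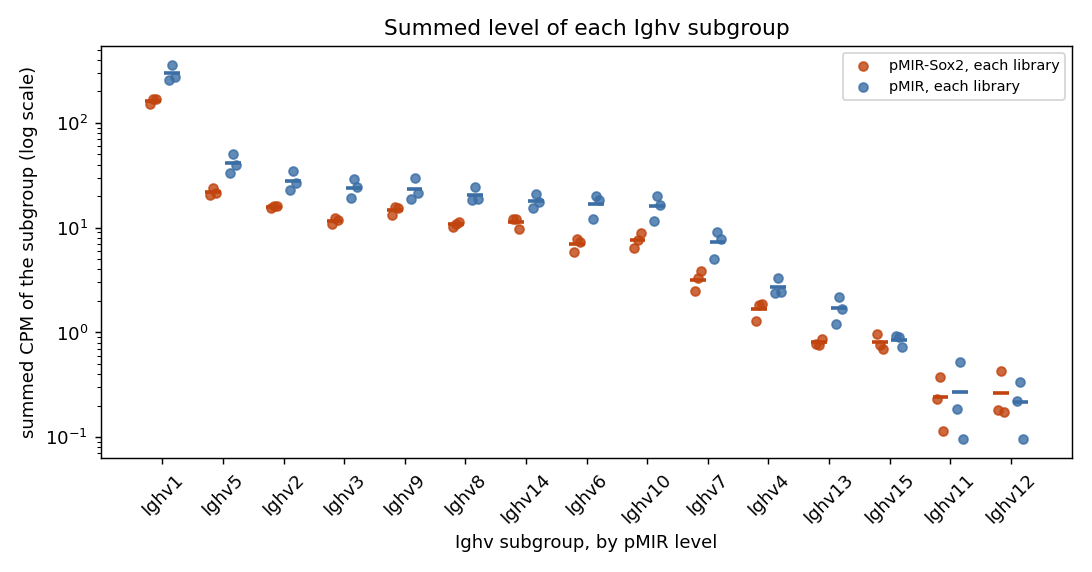
Summed CPM of the Ighv subgroups (vertical, log scale), ordered by their level in pMIR, with a point for each library and a bar for the mean of 3 libraries. The pMIR-Sox2 libraries lie below the pMIR libraries in 12 subgroups and overlap with them in Ighv15, Ighv11 and Ighv12, while Ighv16, with 0 counts, is not drawn.

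With the total set aside, the mix of segments was nearly the same in both groups. Ighv1 made up 60.2, 59.7 and 60.7% of the Ighv counts in pMIR-Sox2 and 61.6, 59.4 and 58.4% in pMIR. The 12 highest segments together held 41.9, 41.5 and 41.5% in pMIR-Sox2 and 41.6, 41.9 and 41.5% in pMIR, and Ighv1-26 alone 6.92, 6.61 and 6.03% in pMIR-Sox2 and 6.92, 6.47 and 6.47% in pMIR. The effective number of segments, which is the number of equally used segments that would give the same evenness, was 42.4, 42.9 and 43.4 in pMIR-Sox2 and 42.5, 42.8 and 42.9 in pMIR by the inverse Simpson index. By the exponential of the Shannon entropy it was 56.7, 57.0 and 56.9 in pMIR-Sox2 and 56.3, 56.9 and 56.1 in pMIR. Neither measure separated the groups. The share of Ighv counts that would have to move between segments to turn the mix of a library into that of another was 6.36 to 8.71% for the 9 pairs across groups. It was 6.73 to 8.01% between pMIR-Sox2 libraries and 5.76 to 6.34% between pMIR libraries, and the pMIR-Sox2 libraries held fewer Ighv counts.

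Some shares differed without overlap. Ighv9 took 5.23, 5.57 and 5.55% of the Ighv counts in pMIR-Sox2, against 4.49, 4.93 and 4.54% in pMIR, and the share was higher in each pMIR-Sox2 library. Ighv3 took 4.30, 4.37 and 4.26% in pMIR-Sox2, against 4.56, 4.78 and 5.16% in pMIR. Ighv6 took 2.33, 2.78 and 2.64% in pMIR-Sox2, against 2.87, 3.34 and 3.93% in pMIR. Both were lower in each pMIR-Sox2 library, although the Wilson 95% intervals of single libraries overlapped, for example 2.36 to 3.26% for Ighv6 in pMIR-Sox2 replicate 2 and 2.58 to 3.19% in pMIR replicate 1. Ighv12 and Ighv15, each a single segment with few counts, also had higher shares without overlap, and the other subgroups with counts overlapped. Among the 78 tested segments, 6 had a lower share in every pMIR-Sox2 library (Ighv1-53, Ighv2-9-1, Ighv3-1, Ighv3-8, Ighv6-3 and Ighv6-6) and 7 a higher share (Ighv1-5, Ighv1-39, Ighv9-1, Ighv9-3, Ighv9-4, Ighv14-4 and Ighv15-2). Over all genes per Ighv count these figures were 2.02% lower and 74.6% higher, since most genes did not fall as the Ighv rows did.

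In the test scaled to the summed Ighv counts, which by its construction sets the members' balance near 0, 0 of the 78 segments were lower and 1 was higher, beside 2.09% and 73.6% of all genes. At an unadjusted p under 0.05 the numbers in edgeR were the same, 0 and 1. The SE of most segments was larger than in the main test, so small shifts in share could be missed. It was 0.23 against 0.14 for Ighv1-26, while for Ighv5-2 it was smaller (0.43 against 0.46). The higher segment was Ighv14-4, with a log2 fold change in share of 0.81 ± 0.33 (unadjusted p = 0.0135, adjusted p = 0.0195). The adjustment ran over all genes tested, of which 73.6% were called higher at this scaling. It therefore hardly corrects for the choice of 1 segment among 78, and the call is weak. Ighv14-4 took 0.910, 1.34 and 0.894% of the Ighv counts in pMIR-Sox2, against 0.708, 0.520 and 0.570% in pMIR. In CPM it had 2.30, 3.79 and 2.49 in pMIR-Sox2, against 2.99, 3.15 and 2.69 in pMIR, so its level overlapped between the groups (−0.04 ± 0.25, adjusted p = 0.898) while that of most segments fell. The call was lost without pMIR-Sox2 replicate 2 (0.59, adjusted p = 0.151) and without pMIR replicate 3 (0.77, adjusted p = 0.0704). With the replicate number as a block it held (adjusted p = 0.00613), and Ighv3-1 was called lower beside it. Of its relatives shown above, Ighv14-2 had 4.87, 3.79 and 3.77 CPM in pMIR-Sox2, against 5.97, 8.20 and 7.11 CPM in pMIR (−0.77, adjusted p = 0.0128). Ighv14-1 had 2.34, 1.30 and 1.04 CPM in pMIR-Sox2, against 1.88, 3.72 and 2.45 CPM in pMIR (−0.75, adjusted p = 0.126), with overlapping libraries. Ighv14-3 fell by 0.91 on the log2 scale (adjusted p = 0.00733).

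Falls were found along the whole heavy chain locus. Of the 75 tested segments with a place in the GENCODE order, 15 of the 25 nearest to the D segments fell, from Ighv5-2 to Ighv3-6, with a median log2 fold change of −0.80. Of the middle 25, from Ighv9-4 to Ighv8-5, 17 fell with a median of −0.88, and of the 25 farthest, from Ighv1-50 to Ighv1-85, 21 fell with a median of −0.87. The nearest segments took 28.4, 28.4 and 26.5% of the Ighv counts in pMIR-Sox2 and 25.9, 27.1 and 27.2% in pMIR. The farthest took 39.2, 38.4 and 39.6% in pMIR-Sox2 and 40.6, 38.9 and 37.6% in pMIR, and both shares overlapped. Across these 75 segments, which share the same 6 libraries, Spearman's rho of the log2 fold change was −0.05 with the order along the locus, 0.147 with the share of unique 50-base windows, 0.066 with GC content and −0.082 with transcript length. It was −0.167 with mean CPM across the 78 tested segments.

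**Figure D3:**
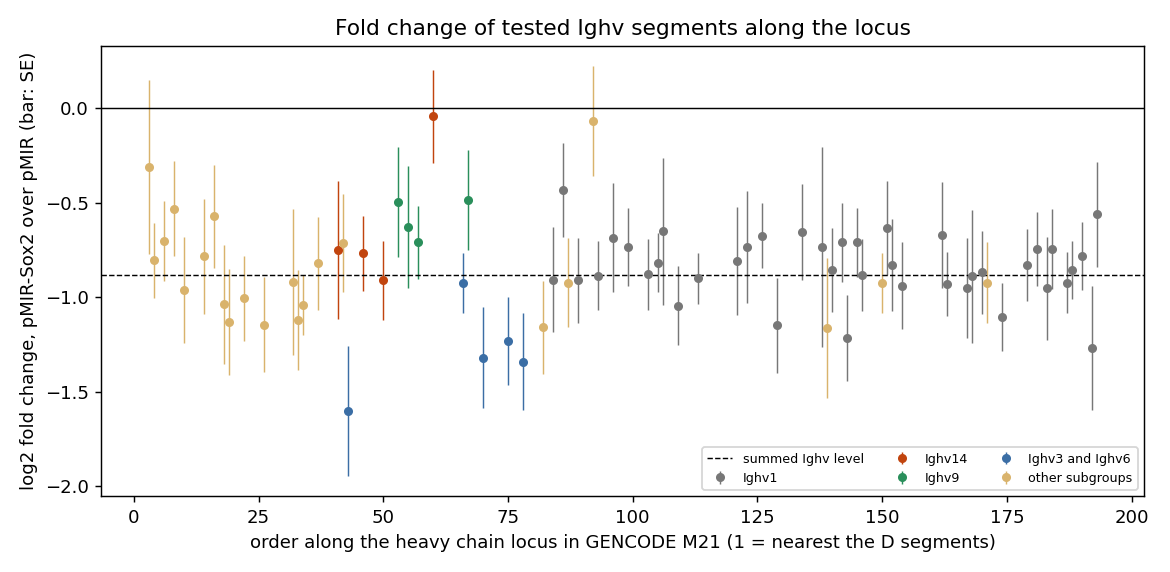
Log2 fold change of pMIR-Sox2 over pMIR (vertical, bars are SE) for the 75 tested Ighv segments with a place in GENCODE M21, by their order along the locus (horizontal, 1 is nearest to the D segments). The points scatter around the dashed line of the summed level (−0.88) over the whole locus, with Ighv14-4 (−0.04) and Ighv15-2 (−0.07) nearest to 0 and Ighv3-1 (−1.60) farthest below.

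The Ighv signal was also lower per constant region count. Per 100 Ighm counts there were 8.96, 8.07 and 8.41 Ighv counts in pMIR-Sox2, against 11.1, 12.1 and 11.3 in pMIR. The means were 8.48 ± 0.447 and 11.5 ± 0.493 (SD, n = 3 each), a log2 ratio of −0.44 without overlap. The heavy chain constant genes counted were 6, namely Ighm, Ighe, Ighg1, Ighg2b, Ighg2c and Ighg3, with no row for Ighd or Igha. Among these, switched classes made up less of the constant counts with Sox2. Ighm took 94.6, 96.5 and 94.3% of the constant counts in pMIR-Sox2, against 81.3, 83.4 and 83.6% in pMIR. Per 100 counts of these 6 genes together there were 8.47, 7.79 and 7.92 Ighv counts in pMIR-Sox2, against 9.05, 10.1 and 9.44 in pMIR. The log2 ratio was −0.24, again without overlap. Constant gene counts include germline transcripts that start upstream of the switch regions and carry no variable segment. Per 100 Igkv counts, which come from kappa light chains, there were 62.4, 65.8 and 50.4 Ighv counts in pMIR-Sox2, against 48.4, 55.2 and 49.2 in pMIR, and the groups overlapped. J segments were hardly counted, with 3, 3 and 0 counts over the Ighj rows in pMIR-Sox2 and 8, 8 and 2 in pMIR.

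**Figure D4:**
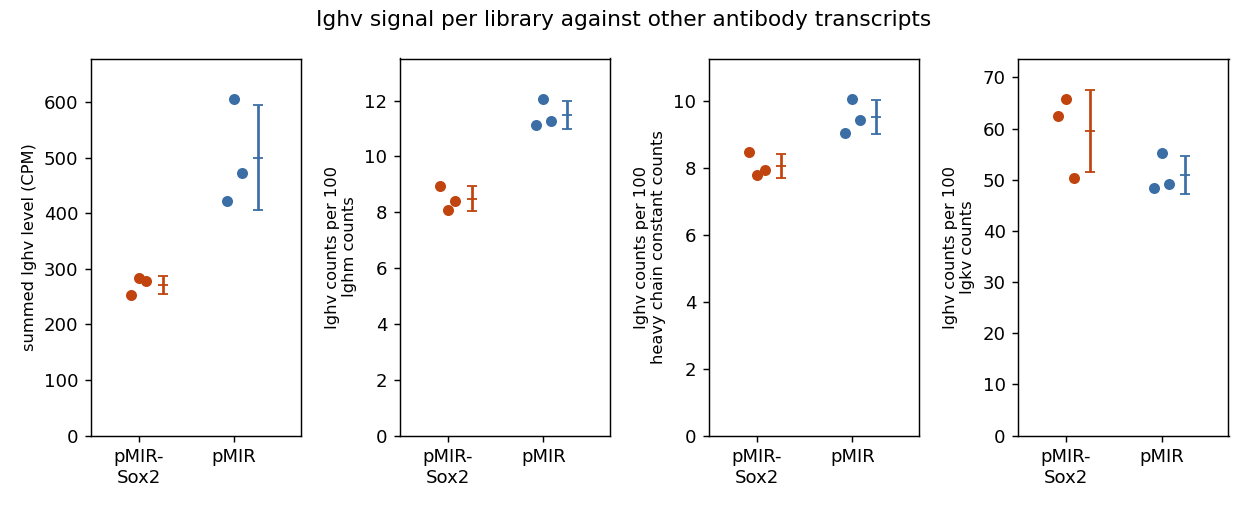
Ighv signal of each library on 4 scales, with points for libraries and bars for the mean ± SD of 3. They are, from left, summed CPM and Ighv counts per 100 counts of Ighm, of 6 heavy chain constant genes and of Igkv. The pMIR-Sox2 libraries lie below all pMIR libraries in the first 3 panels and overlap with them in the last.

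In a test scaled to Ighm counts, 10 of the 78 segments were lower and 0 higher, beside 4.54% and 38.9% of all genes, and 0 were higher at an unadjusted p under 0.05. This scaling moved the median of all genes to 0.41 (log2), and that to summed Ighv counts to 0.84. The 10 were Ighv3-1 (−1.15), Ighv6-6 (−0.89), Ighv3-8 (−0.87), Ighv6-3 (−0.80), Ighv1-53 (−0.76), Ighv7-3 (−0.75), Ighv10-1 (−0.71), Ighv1-72 (−0.67), Ighv5-17 (−0.61) and Ighv1-22 (−0.59).

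Other antibody transcripts fell too. Of 86 tested kappa and lambda variable segments 79 fell (20.0% of all genes) and 7 did not pass, with a median log2 fold change of −1.14. Igkc, the kappa constant gene, averaged 524 ± 87.2 CPM in pMIR-Sox2 and 1077 ± 130 CPM in pMIR (−1.04, adjusted p = 0.000679). Of 6 heavy chain constant genes all fell, beside 20.0% of all genes. Ighg1 fell to 152 ± 34.0 CPM in pMIR-Sox2, against 841 ± 91.7 CPM in pMIR (−2.47, adjusted p = 2.36e-05). Ighm averaged 3211 ± 354 CPM in pMIR-Sox2 and 4331 ± 631 CPM in pMIR (−0.43, adjusted p = 0.0394), and its call was lost without pMIR replicate 2 or 3, without pMIR-Sox2 replicate 1 or 3, and with library totals only (adjusted p = 0.0542 to 0.154).

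Regulators of heavy chain transcription went both ways, with 7 of 19 tested genes falling (20.0% of all genes), 8 rising (23.2%) and 4 not passing. Their median log2 fold change was 0.09. The falls of Bhlhe40, Irf8 and Ikzf1 and the rise of Yy1 were each lost without at least 1 library (adjusted p = 0.0511 to 0.159). Oct-2, encoded by Pou2f2, and its coactivator OBF-1, encoded by Pou2af1, act on the octamer element of variable segment promoters, as does Oct-1, encoded by Pou2f1. Pou2f2 fell to 26.9 ± 3.60 CPM in pMIR-Sox2, against 70.4 ± 15.7 CPM in pMIR (−1.39, adjusted p = 0.00031), and Pou2af1 to 1032 ± 62.5 CPM in pMIR-Sox2, against 1896 ± 218 CPM in pMIR (−0.88, adjusted p = 0.000636). Pou2f1 rose, with 125 ± 38.7 CPM in pMIR-Sox2 and 80.9 ± 5.98 CPM in pMIR (0.62, adjusted p = 0.0275), a call lost without any 1 of the pMIR libraries (adjusted p = 0.0531 to 0.0908). The E protein genes Tcf12 (2.89) and Tcf4 (1.29), Ets1 (1.55), Ebf1 (0.89) and Pax5 (0.89), which encode factors that bind heavy chain enhancers or B cell promoters, rose, and Irf4 fell (−1.72). Among plasma cell genes, whose expression accompanies high antibody transcription, 7 of 10 fell (20.0% of all genes), 2 rose (23.2%) and 1 did not pass. The fall of Xbp1 (−0.42, adjusted p = 0.04997) was at the threshold. Its call was lost without any 1 of the pMIR libraries, without pMIR-Sox2 replicate 1 or 3, and with library totals only (adjusted p = 0.05105 to 0.1575). Derl3, a factor of protein quality control in the endoplasmic reticulum, fell to 4.47 ± 1.28 CPM in pMIR-Sox2, against 17.6 ± 1.197 CPM in pMIR (−1.98). Prdm1, the regulator of plasma cell fate, rose to 22.1 ± 7.41 CPM in pMIR-Sox2, against 9.69 ± 0.953 CPM in pMIR (1.19, adjusted p = 0.00397). Edem1, of the same quality control, also rose (0.51), a call lost without pMIR replicate 3 (adjusted p = 0.0535). Igj, whose product links secreted antibodies into polymers, had 1.10, 1.08 and 1.39 CPM in pMIR-Sox2, against 9.22, 48.6 and 15.7 CPM in pMIR. It was highest in pMIR replicate 2, which also had the highest Ighv level. The plasma cell markers Sdc1, Prdm1, Xbp1, Igj and Tnfrsf17 summed to 337 to 450 CPM in pMIR-Sox2 and 436 to 605 CPM in pMIR. The sums overlapped, and most of each was Xbp1 (means of 349 CPM in pMIR-Sox2 and 466 CPM in pMIR). They therefore say little of the other markers. Of these, Tnfrsf17 had too few counts to be tested, at 0 in pMIR-Sox2 and at 0.0738, 0.143 and 0.0960 CPM in pMIR. In the B cell receptor complex, Cd79b, which carries the receptor's signal, fell (−1.19), and Cr2, a complement receptor, rose (2.79). The other rise, of the kinase gene Syk (0.50), was lost without pMIR replicate 1 or 3 or without pMIR-Sox2 replicate 1 or 2 (adjusted p = 0.0659 to 0.0915). The part of these genes in the Ighv levels was not tested.

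Rows with few or no counts included most of the pseudogenes. Of the 21 rows under 10 counts, 12 held 1 to 9 counts and 9 held 0. Just inside the limit were Ighv8-11 (12 counts), Ighv1-23 (12), Ighv1-43 (15) and Ighv1-83 (19), and just outside it Ighv1-2 (9), Ighv1-62-3 (8), Ighv1-14 (7) and Ighv2-7 (6). GENCODE lists 9 of the 109 matched rows as pseudogenes, and 8 of these were under 10 counts, with Ighv1-83 the exception. Together the pseudogenes held 5, 1 and 9 counts in pMIR-Sox2 and 4, 13 and 9 in pMIR. Ighv1-71 and Ighv1-62-2, with 0 counts, shared 97.4% and 91.8% of their 50-base windows with each other. Across the 109 matched rows, Spearman's rho of the share of unique windows with total counts was 0.03. Ighv1-72 had 7.5% of its windows to itself and 834 counts, and fell by 1.10 on the log2 scale (adjusted p = 0.00128). Its share of windows in common with Ighv1-62-3, which held 8 counts, was 68.3%. Counts of such segments depend on how the counting placed shared reads, and their values are uncertain.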

How the data were processed

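Total RNA of 3 pMIR-Sox2 and 3 pMIR libraries was sequenced, and the authors deposited raw counts per gene, 1 column per library. Mouse build mm9 is named in the submitters' processing notes, along with HTSeq 0.6.1p1, TopHat2 2.0.11, Trimmomatic 0.32, SAMtools 0.1.19 and Bowtie2 2.2.2, without their roles. The annotation release and the strand setting are not given in the sources used here. Lines that name no gene stayed out of library sizes and tests. Of each library's table total, alignments that were not unique took 23.1 to 26.5% in pMIR-Sox2 and 25.7 to 26.0% in pMIR, and reads in no feature 12.1 to 14.6% in pMIR-Sox2 and 11.4 to 13.1% in pMIR.

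Members and gene lists were chosen with earlier results of these data known. The test across the 12899 genes that passed filterByExpr was edgeR's (4.0.16, R 4.3.3; TMM, robust quasi-likelihood), with Benjamini-Hochberg adjustment over all of them and a threshold of 0.05. Unless another tool is named, adjusted p comes from it, and SE is that of the log2 fold change. The common biological coefficient of variation was 14.4%, and TMM factors were 1.01 to 1.05 in pMIR-Sox2 and 0.969 to 0.980 in pMIR. CPM are counts over the TMM-scaled library size, and summed levels, shares and evenness were described without a test. Wilson 95% intervals cover counting error only. Alternatives were DESeq2 1.42.0, limma-voom (limma 3.58.1), other filters and scalings, a replicate block, and leaving out each library.

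The labels give the groups shared numbers (8, 9 and 12). Over the genes tested, deviations of same-numbered libraries from their group means correlated at 0.242, 0.359 and 0.189. Other pairs across groups gave −0.241 to 0.034, so the numbers were taken to pair the libraries. Over the 78 tested Ighv segments same-numbered libraries gave −0.086, −0.029 and 0.166, within the −0.204 to 0.215 of the other pairs. The main test was by group alone, and the pairing entered only the replicate block.

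Class, order along the locus and sequences came from GENCODE M21 (GRCm38), another build than mm9, so no coordinates are given. Of the 113 rows, 109 were matched, 88 of them by symbol alone. For the other 4 (Ighv7-1, Ighv7-3, Ighv13-1 and Ighv13-2) GENCODE gives the identifier another symbol, for Ighv13-2 one of another subgroup. They were left out of these steps, and their values and subgroups stand under the deposited symbols. Segments are named in the text if among the 12 highest by mean CPM, the 12 largest falls or any rise, or the highest of a subgroup. The same holds for the 3 largest shares in any 1 library and the 4 rows to either side of the limit of 10 counts. Other segments, and the genes of other lists, are named in part after their values were seen. Of the marker and receptor lists, 1 gene is not reported here, nor are sums and counts that include it.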

Additional observations from a re-analysis of the deposited data

How the results depend on the processing

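The 56 falls (beside 20.0% of all genes) became 63 with the replicate block (25.7%), which kept all 56, and no rise appeared. Leaving out each library gave 34 to 53 falls, the fewest without pMIR-Sox2 replicate 1 (14.3%) and 42 without pMIR replicate 2 (17.9%). DESeq2 gave 53 (20.3%), limma-voom 55 (20.2%), TMM without immunoglobulin rows 57 (20.6%), library totals only 54 (16.0%), no filter 55 of 104 tested (11.1%) and a limit of 1 CPM in 3 libraries 53 of 68 (20.8%). The calls depend on the scaling: scaled to Ighm counts 10 segments were lower, and scaled to summed Ighv counts 0 were lower and 1 higher. The summed level was −0.44 (log2) per Ighm count and −0.24 per heavy chain constant count, the last scale chosen after seeing the data; it was −0.99 to −0.72 when 1 library was left out. Scaled to summed Ighv counts, which centres the segments by its construction, 37 of 78 log2 fold changes were negative and the rest positive, among the named segments Ighv1-9 (0.0055), Ighv1-81 (0.0079), Ighv2-2 (0.0892), Ighv1-82 (0.10), Ighv14-2 (0.12), Ighv4-1 (0.16), Ighv9-3 (0.18), Ighv5-4 (0.18), Ighv1-39 (0.20) and Ighv15-2 (0.79). Ighv15-2 was also positive with library totals only (0.0083), scaled to Ighm counts (0.36) and without pMIR-Sox2 replicate 3 (0.0302), where leaving out 1 library gave −0.2203 to 0.0302. In the test of shares, also repeated after seeing the data, leaving out each library gave 0 to 2 segments higher and 0 lower, with Ighv5-2 the second without pMIR replicate 2, and the replicate block 1 lower. Of other genes, rises numbered 1 to 2 in the B cell receptor complex and 1 to 2 among plasma cell genes when 1 library was left out. Of all genes, 23.2% rose in the test of all libraries. Without pMIR replicate 1 the share was 17.9%, the lowest of the tests that left 1 library out. Whether these few rises exceed such shares was not tested. The shares by subgroup and the evenness moved by less than 1 SD under the alternatives run for them. The 14 used segments left out of the test by its filter held 12 to 49 counts each, which limits what they can show. RNA per cell was not measured.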
